A study of Homo sapiens with 18 samples.

Results

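The FOS and JUN families, with EGR1, IER3 and DUSP1, were followed in ARPE-19, an immortalized human retinal pigment epithelium (RPE) line. The members were chosen by gene symbol: FOS, FOSB, FOSL1, FOSL2, JUN, JUNB, JUND, EGR1, IER3 and DUSP1. All 10 were found among the 23411 symbols of the count files. The design held 6 groups of 3 libraries (18 in all). Control cells had received a Cas9 lentivirus without a guide RNA, and NRF2-edited cells were 1 clone that had received Cas9 with a guide to exon 5 of NFE2L2, the NRF2 gene, and whose edited alleles both carry a stop codon. Both lines were thus transduced, and whatever is particular to the 1 clone cannot be told apart from the edit. Each line was left untreated (water), given 0.2 mM H2O2, an oxidant, or given 1 mM NACET (N-acetylcysteine ethyl ester), a cell-permeant cysteine donor. The sources differ on the time, which matters for genes of this kind. The sample labels give 2 h of treatment after 22 h in 1% serum. The series design gives 8 h after 40 h in 10% serum, and elsewhere 1% serum. The published description of the experiment names the same treatment time as the series design, so the sample labels stand alone on the time. That description also puts treatment 40 h after seeding and names 10% serum for the experiments that followed its first transcriptome.

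AP-1 is a dimer of basic leucine zipper (bZIP) proteins, made of a JUN protein with a second JUN or a FOS protein, and it binds a short palindrome near its target genes. Most of its genes belong to the immediate early genes, which growth factors, serum and stress switch on through MAP kinases without new protein synthesis, and whose mRNA is usually short-lived. FOSL1, FOSL2 and JUND are the longer-lived members that dominate the dimer outside of a pulse, whereas FOS, FOSB and EGR1 are low in resting cells. DUSP1 is a phosphatase that switches MAP kinases off again, and IER3 is a stress gene with roles in survival signalling.

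Promoters are shown for JUND and DUSP1, which had similar profiles over the libraries (Pearson correlation 0.84), and for EGR1, which did not share them. FOSB with DUSP1 (0.86) and JUN with JUND (0.85) were closer pairs, and the promoters of FOSB and JUN held none of the motifs searched. RefSeq promoters (GRCh38.p14, 250 bases before to 50 after the start) were held for 8 of the 10 genes, all but FOSL1 and IER3. The 250 bases upstream of JUND (chr19:18281623-18281872, minus strand), DUSP1 (chr5:172771196-172771445, minus strand) and EGR1 (chr5:138465229-138465478, plus strand) read as follows, 5′ to 3′, with the matched motifs in capitals.
JUND: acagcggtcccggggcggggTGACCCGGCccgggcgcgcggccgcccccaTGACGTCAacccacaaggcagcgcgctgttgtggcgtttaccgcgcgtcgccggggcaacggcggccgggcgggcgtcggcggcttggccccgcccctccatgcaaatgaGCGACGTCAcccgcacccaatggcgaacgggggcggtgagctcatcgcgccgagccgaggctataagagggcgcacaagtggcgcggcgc
DUSP1: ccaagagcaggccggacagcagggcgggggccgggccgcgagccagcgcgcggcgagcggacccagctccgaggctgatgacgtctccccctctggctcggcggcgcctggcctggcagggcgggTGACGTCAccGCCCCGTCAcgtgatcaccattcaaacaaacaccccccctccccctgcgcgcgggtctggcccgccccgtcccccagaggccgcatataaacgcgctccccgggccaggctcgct
EGR1: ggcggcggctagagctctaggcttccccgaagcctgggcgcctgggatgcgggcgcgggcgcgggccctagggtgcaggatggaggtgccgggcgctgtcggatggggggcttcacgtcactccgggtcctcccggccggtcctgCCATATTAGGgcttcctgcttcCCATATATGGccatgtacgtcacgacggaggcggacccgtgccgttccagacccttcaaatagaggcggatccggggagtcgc
In JUND and DUSP1 the capitals mark the cyclic AMP response element TGACGTCA, a site of CREB and ATF proteins, and the core of the antioxidant response element TGACNNNGC, the site of NRF2, on either strand. JUND held 1 of the former and 2 of the latter, and DUSP1 held 1 of each. In EGR1 the capitals mark a pair of CArG boxes, the site of serum response factor. On both strands of the 300-base windows, TGACGTCA was in 2 of the 8 member promoters and in 1.85% of 35116 promoters, TGACNNNGC in 2 of the 8 and in 13.3%, and the CArG box in 1 of the 8 and in 1.29%. The AP-1 site TGANTCA was found in 1 of the 8, just after the FOSL2 start, and in 7.71% of all promoters. No 2 matches overlapped. These are matches of letters only.

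In GRCh37 (hg19) coordinates of GENCODE, the FOS family lies at chr14:75745529-75748933 (FOS), chr19:45971253-45978437 (FOSB), chr11:65659520-65668044 (FOSL1) and chr2:28615315-28640184 (FOSL2). The JUN family lies at chr1:59242517-59249720 (JUN), chr19:12902300-12904129 (JUNB) and chr19:18390504-18392432 (JUND). EGR1 and DUSP1 share a chromosome, at chr5:137801168-137804992 and chr5:172195099-172198198, and IER3 is at chr6:30710976-30712325. All are protein-coding, and counts cover all exons of a gene.

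The libraries held 16673306 to 25951154 counts on genes, and the 10 genes took 0.0994% to 0.149% of them. All libraries carried the RPE-associated transcripts KRT8, KRT18, MITF and OTX2, while RPE65, RLBP1 and TTR, which mark mature RPE, had at most 8 counts, so the label of a pigment epithelium rests on the line's name and on part of its markers. Of 8 markers of photoreceptor, endothelial, leukocyte and glial cells, 7 stayed under 1 CPM (a count scaled to a common library total), and the exception was CD68 (77.5 to 147 CPM). NFE2L2 itself lay between 102 and 149 CPM over the 18 libraries. A stop codon need not lower the mRNA, so its level does not check the edit. The summed level of 12 RPE markers moved with treatment in both lines: 1309 to 1439 CPM in untreated libraries, 945 to 1056 CPM with H2O2 and 1118 to 1324 CPM with NACET. Its part in the results was not tested. Levels are given as CPM scaled by the trimmed mean of M values (TMM), in the order of replicates 1, 2 and 3. The labels do not say that replicates were separate cultures, so p-values measure only the spread between these libraries. Fewer cells with a transcript and less of it per cell cannot be told apart in bulk RNA.

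Compared per length of exon, DUSP1 and JUN were the most abundant of the 10 (means over 18 libraries of 126 and 117 CPM per kb). JUND (67.4), IER3 (61.4) and FOSL1 (60.2 CPM per kb) followed, then FOSL2 (20.5) and JUNB (11.4). EGR1 (2.09), FOSB (0.345) and FOS (0.103 CPM per kb) were the lowest, EGR1 with 50 to 318 counts in a library. FOS, the founding partner of JUN in AP-1, had only 2 to 13 counts in a library (0.0852 to 0.656 CPM). A library count of 3 would amount to as much as 0.174 CPM. Small differences in FOS between groups were therefore not detectable at this depth. Its group means were 0.267 to 0.384 CPM, and it passed the filter on low counts in no comparison. The spread within the system was uneven: JUN varied 1.46-fold between its lowest and highest library, DUSP1 2.08-fold, FOSL2 2.20-fold, JUND 2.52-fold and IER3 2.87-fold. JUNB (5.01-fold), FOSL1 (5.32-fold), EGR1 (6.68-fold) and FOSB (14.2-fold) varied most among the genes tested. With the 6 groups of each gene ordered by mean level, neighbouring groups overlapped throughout, except for FOSB (edited untreated below control with H2O2) and JUND (edited untreated below edited with H2O2).

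**Figure D1:**
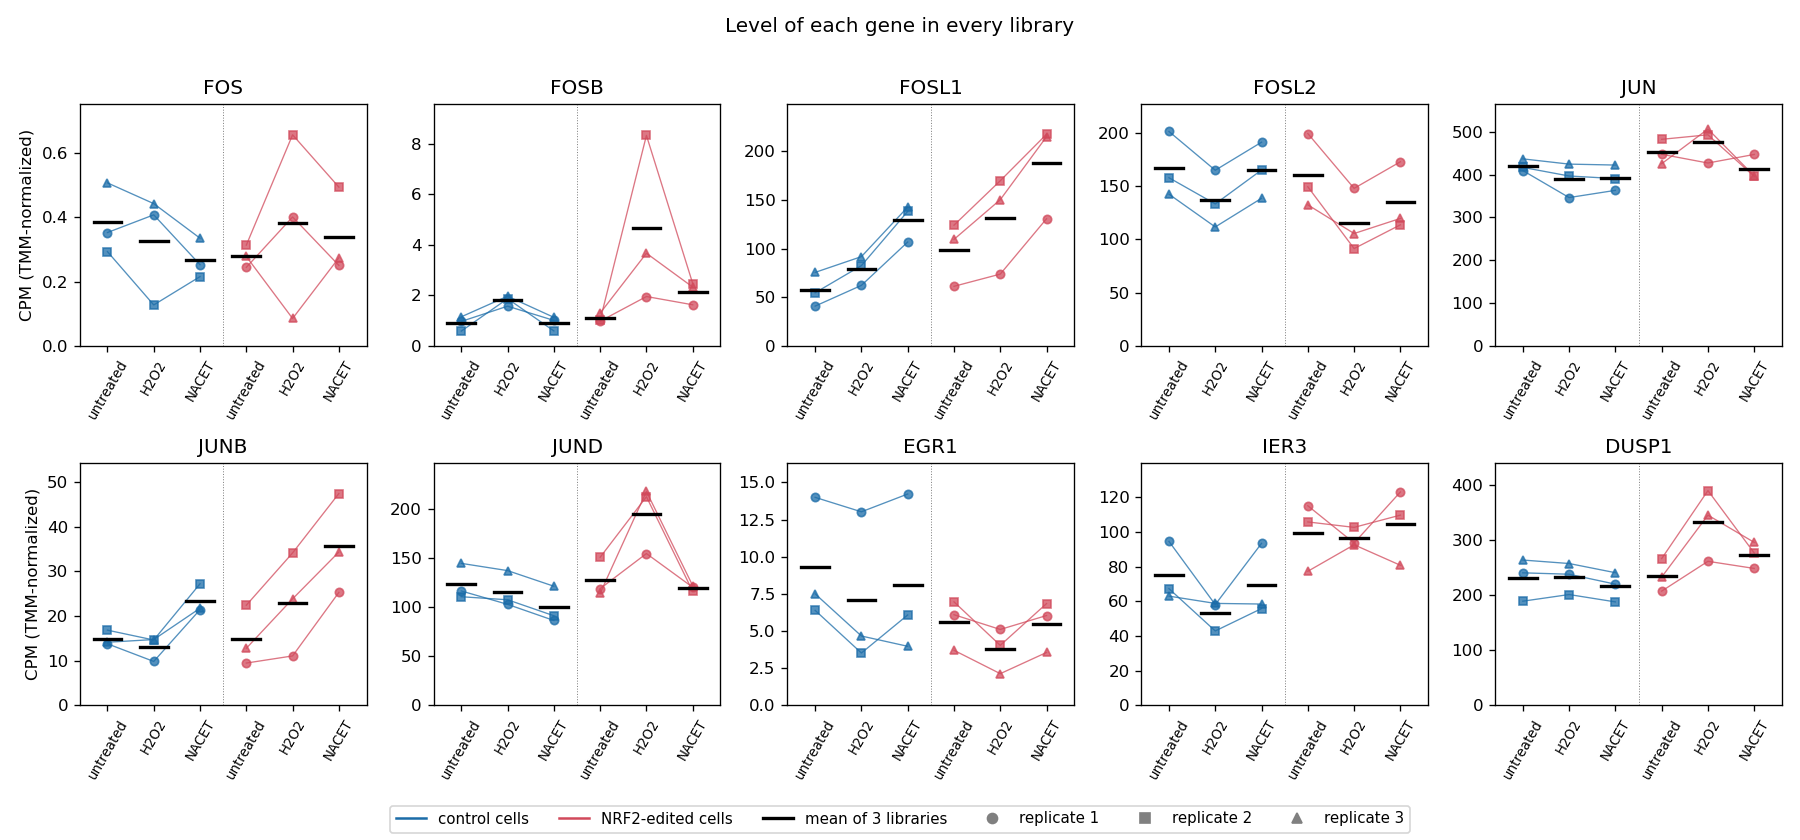
Level of each of the 10 genes in every library, in TMM-normalized CPM on a linear axis from 0. Points are libraries, marker shapes are replicate numbers, thin lines join libraries of 1 number within a cell line, and black bars are means of 3. FOSL1 reached its highest values with NACET in both lines (107 to 143 CPM in control and 131 to 217 CPM in NRF2-edited cells), and JUND stood highest in NRF2-edited cells given H2O2 (154 to 217 CPM).

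The question put to each treatment was which of the 9 measurable genes it moved in each line. A gene was called when its adjusted p was under 0.05 and its log2 fold change reached 0.6 in either direction (edgeR's quasi-likelihood test, p adjusted by Benjamini-Hochberg over all genes). H2O2 called none of the 9 in control cells, where 6.33% of all genes tested were called, and 1 in NRF2-edited cells (FOSB, against 9.81% of all genes). NACET called 2 in control cells (FOSL1 and JUNB, against 2.75%) and none in NRF2-edited cells (against 1.39%). At an unadjusted p under 0.05 the same 4 comparisons gave 2, 3, 2 and 3 of the 9, and DESeq2 gave 0, 2, 2 and 2. Low unadjusted p-values were common over all genes. With H2O2 an edgeR unadjusted p of 0.0513 ranked 4247 of 13691 in control cells, and 0.0542 ranked 4173 of 13543 in edited cells. With NACET 0.0733 ranked 3453 of 13696 and 0.0115 ranked 1104 of 13542. No share of all genes is given for DESeq2, and neither count is read as a result about the 9. The median log2 fold change of the 9 was -0.10 and 0.42 with H2O2 in control and NRF2-edited cells, and -0.10 and 0.07 with NACET. The medians over all genes were within 0.01 of 0.

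Libraries of 1 replicate number deviated together within a line. A fit with the replicate number as a block therefore also bears on the treatment comparisons, and its value stands beside a result where it changes the call. That fit called 1, 3, 2 and 3 of the 9 genes in the 4 comparisons, where 10.2%, 18.7%, 7.49% and 8.82% of all genes were called. It left 2 residual degrees of freedom and drew 14.1 to 382 prior degrees of freedom from the other genes, against 4.03 to 5.08 without the block, so its small p-values lean on the spread of the other genes.

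**Figure D2:**
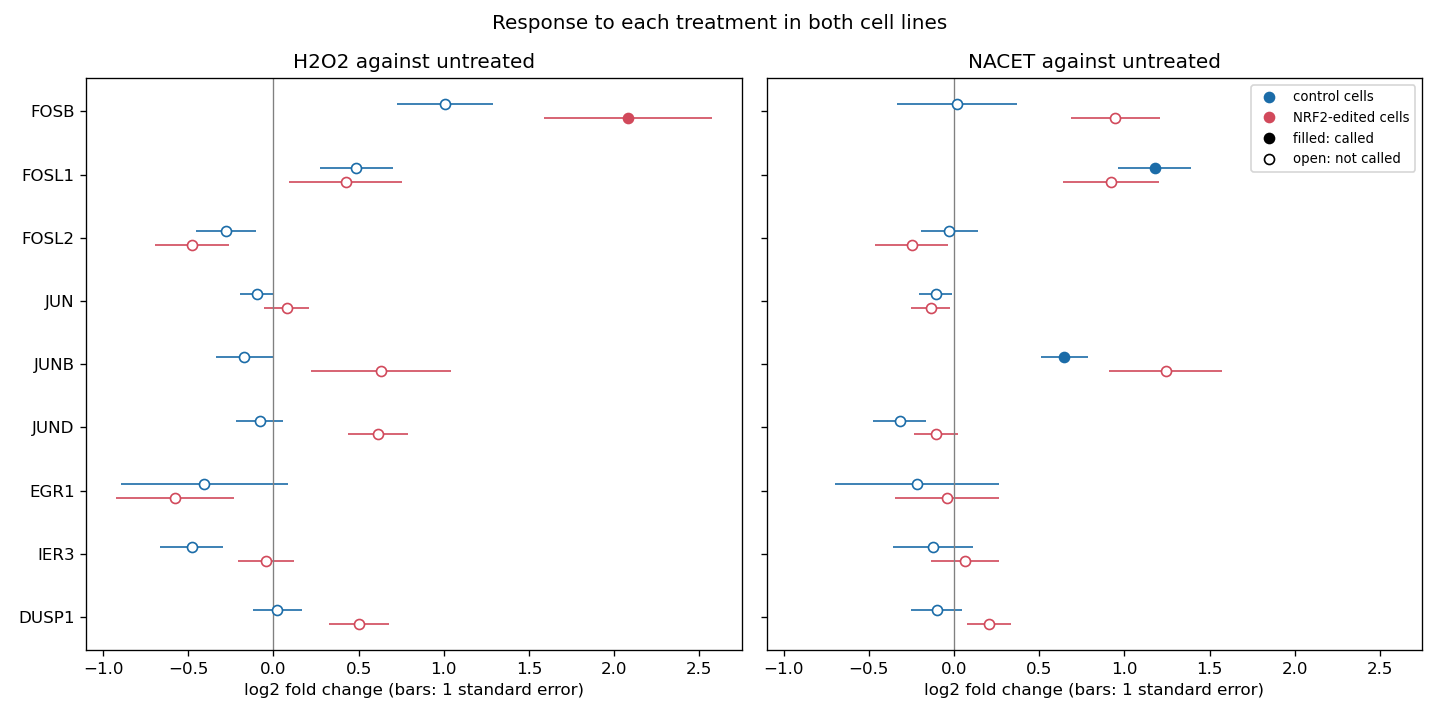
Log2 fold change against untreated cells for the 9 tested genes, with H2O2 on the left and NACET on the right; bars are 1 standard error, blue is control and red NRF2-edited cells, and filled points were called. FOSB lies farthest right with H2O2 (1.01 and 2.08), FOSL1 (1.18 and 0.92) and JUNB (0.65 and 1.24) with NACET.

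Among the FOS family, FOSL1 had the steadiest response, and it was to NACET. FOSL1 encodes FRA-1, a FOS protein without a transactivation domain that is abundant in migrating and transformed cells. In control cells it had 40.8, 54.5 and 75.5 CPM untreated, 62.2, 82.4 and 91.7 CPM with H2O2, and 107, 138 and 143 CPM with NACET. The NACET libraries all lay above the untreated and the H2O2 libraries, which overlapped each other. FOSL1 rose with NACET by 1.18 on the log2 scale (SE 0.21, edgeR adjusted p = 0.0303). When libraries were left out, 1 at a time or by replicate number, the call held in 3 of 9 fits, those without an untreated or NACET library 3 or without both (range 0.99 to 1.43, adjusted p up to 0.459). In NRF2-edited cells FOSL1 had 61.2, 124 and 109 CPM untreated, 73.7, 170 and 150 CPM with H2O2, and 131, 217 and 215 CPM with NACET. Library 1 was the lowest of each group of edited cells, yet NACET exceeded the untreated library of the same number in 3 of 3. The difference was 0.92 (SE 0.28, edgeR adjusted p = 0.141), and it was called with the replicate block (0.95, adjusted p = 8.54e-08). With H2O2 the difference was 0.49 (SE 0.21, edgeR adjusted p = 0.165) in control and 0.42 (SE 0.33, adjusted p = 0.418) in edited cells, higher in 3 of 3 numbers in both lines and called in neither.

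FOSB stood higher with H2O2 in both lines, and with NACET in edited cells only. It encodes a FOS protein that, like FOS, is normally scarce in resting cells, and it was read from only 11 to 165 counts per library. Control cells had 0.968, 0.585 and 1.15 CPM untreated, 1.57, 1.87 and 1.96 CPM with H2O2, and 1.01, 0.592 and 1.13 CPM with NACET. The H2O2 libraries lay above all the others of the line, and the untreated and NACET libraries were interleaved. The H2O2 difference was 1.01 (SE 0.28) with an edgeR adjusted p of 0.0508, and it was called with the block (1.02, adjusted p = 0.00393). In NRF2-edited cells FOSB had 0.976, 1.02 and 1.30 CPM untreated, 1.95, 8.32 and 3.66 CPM with H2O2, and 1.63, 2.47 and 2.33 CPM with NACET. Every treated library of the edited line stood above every untreated one, and 1 library, number 2 with H2O2, stood far above the rest. FOSB rose with H2O2 by 2.08 (SE 0.49, edgeR adjusted p = 0.0300). Without 1 or more libraries the difference ranged from 1.31 to 2.45, and the call held in 3 of 9 fits, those that left out number 1 among the untreated, the H2O2 or both groups (adjusted p up to 0.321). With NACET the difference in edited cells was 0.95 (SE 0.26, edgeR adjusted p = 0.113), called with the block (0.95, adjusted p = 0.00461).

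FOSL2, which encodes FRA-2, ran the other way. It had 202, 158 and 143 CPM untreated, 165, 133 and 112 CPM with H2O2, and 191, 165 and 139 CPM with NACET in control cells. In NRF2-edited cells it had 200, 150 and 133 CPM untreated, 148, 91.5 and 106 CPM with H2O2, and 173, 114 and 120 CPM with NACET. H2O2 libraries were below the untreated library of their number in 3 of 3 in both lines, while the groups overlapped. The differences were -0.28 (SE 0.18, edgeR adjusted p = 0.324) in control and -0.48 (SE 0.22, edgeR adjusted p = 0.176) in edited cells, and neither passed the fold limit. Library 1 was the highest of its group throughout, as it was the lowest of its group for FOSL1.

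In the JUN family, JUNB followed NACET and JUND followed H2O2 in the edited line. JUNB encodes a JUN protein that is a weaker activator than JUN and can hold it back. Control cells had 13.8, 16.8 and 14.1 CPM of JUNB untreated, 9.83, 14.6 and 14.7 CPM with H2O2, and 21.4, 27.2 and 21.7 CPM with NACET. The 3 NACET libraries lay above the 6 others, which overlapped. JUNB rose with NACET by 0.65 (SE 0.14, edgeR adjusted p = 0.0461), near both limits. The call was lost in all 9 fits that left out libraries (0.53 to 0.74, adjusted p 0.0549 to 0.421) and in the fit of all 18 libraries together (0.64, adjusted p = 0.333). NRF2-edited cells had 9.46, 22.4 and 12.8 CPM untreated, 11.1, 34.1 and 23.8 CPM with H2O2, and 25.3, 47.4 and 34.3 CPM with NACET. Number 2 was highest and number 1 lowest in each of these groups, and NACET exceeded untreated within every number. The NACET difference was 1.24 (SE 0.33, edgeR adjusted p = 0.104) and was called with the block (1.28, adjusted p = 7.28e-08). With H2O2 the difference in edited cells was 0.63 (SE 0.41, edgeR adjusted p = 0.333), called with the block at the fold limit (0.60, adjusted p = 6.21e-05).

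JUND, the most constant JUN protein in resting cells and often a brake on growth, was called in no treatment comparison of control cells. They had 116, 110 and 144 CPM untreated, 103, 107 and 137 CPM with H2O2, and 86.2, 91.0 and 121 CPM with NACET. NACET was below untreated within 3 of 3 numbers, by -0.32 (SE 0.15, edgeR adjusted p = 0.291), with overlapping groups. NRF2-edited cells had 119, 150 and 114 CPM untreated, 154, 212 and 217 CPM with H2O2, and 120, 116 and 122 CPM with NACET. The H2O2 libraries of the edited line were above all 15 other libraries of the series. The difference from untreated was 0.61 (SE 0.18, edgeR adjusted p = 0.0560), just short of the threshold, and it was called with the block (0.61, adjusted p = 3.55e-07), with DESeq2 (0.61, adjusted p = 0.0174), without the filter on low counts (0.63, adjusted p = 0.0370) and in the fit of all libraries (0.64, adjusted p = 0.00934).

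JUN itself, the principal transactivating partner of AP-1, had the narrowest range of the tested genes. Control cells had 409, 417 and 437 CPM untreated, 346, 397 and 424 CPM with H2O2, and 363, 391 and 422 CPM with NACET. NRF2-edited cells had 447, 482 and 425 CPM untreated, 427, 493 and 506 CPM with H2O2, and 447, 396 and 397 CPM with NACET. The groups overlapped in each treatment comparison, and JUN was called in none.

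Of the other immediate early genes, DUSP1 resembled JUND. Control cells had 241, 189 and 264 CPM untreated, 238, 201 and 258 CPM with H2O2, and 220, 188 and 241 CPM with NACET, 3 overlapping groups. NRF2-edited cells had 207, 266 and 233 CPM untreated, 262, 390 and 345 CPM with H2O2, and 249, 277 and 296 CPM with NACET. With H2O2 each edited library exceeded the untreated one of its number, by 0.50 overall (SE 0.17, edgeR adjusted p = 0.0959), under the fold limit. With NACET the difference was 0.21 (SE 0.13, edgeR adjusted p = 0.444), again higher in 3 of 3 numbers.

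EGR1, a zinc finger factor that serum and MAP kinases induce through the CArG boxes shown above, was low and split by replicate number rather than by treatment. Control cells had 14.0, 6.39 and 7.50 CPM untreated, 13.0, 3.52 and 4.66 CPM with H2O2, and 14.2, 6.08 and 3.97 CPM with NACET. Library 1 of control cells was the highest in each of the 3 groups and stood above all 15 other libraries. NRF2-edited cells had 6.10, 6.96 and 3.70 CPM untreated, 5.11, 4.03 and 2.13 CPM with H2O2, and 6.04, 6.85 and 3.56 CPM with NACET. H2O2 was below untreated within every number in both lines. The difference in edited cells was -0.58 (SE 0.35, edgeR adjusted p = 0.296), and EGR1 was called in no treatment comparison, with or without the block.

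IER3 had 94.5, 67.3 and 63.0 CPM untreated, 58.1, 42.9 and 58.8 CPM with H2O2, and 93.4, 55.8 and 58.4 CPM with NACET in control cells. All 3 H2O2 libraries were below all 3 untreated ones, by -0.48 (SE 0.19, edgeR adjusted p = 0.121), which was under the fold limit. NRF2-edited cells had 115, 106 and 77.3 CPM untreated, 93.6, 103 and 92.6 CPM with H2O2, and 123, 110 and 80.8 CPM with NACET. These 3 groups overlapped. In the treatment comparisons as a whole, groups without overlap were found for 2 of the 9 genes with H2O2 in control cells (FOSB above, IER3 below), 2 with H2O2 in edited cells (FOSB and JUND above), 2 with NACET in control cells (FOSL1 and JUNB above) and 3 with NACET in edited cells (FOSB, FOSL1 and JUNB above). Over all genes tested, 34.8% had separate groups in either direction with H2O2 in control cells, and 16.2%, 13.5% and 12.5% lay above in the other comparisons.

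NACET and H2O2 were then set against each other within each line, with the values per library given above. In control cells 2 of the 9 genes were called, against 3.67% of all genes: FOSL1 was higher with NACET by 0.70 (SE 0.16, edgeR adjusted p = 0.0462) and JUNB by 0.83 (SE 0.18, edgeR adjusted p = 0.0373). Each call held in 2 of 9 fits that left out libraries: FOSL1 without NACET library 1 or without number 3, and JUNB without NACET library 3 or without number 3 (0.56 to 0.83 and 0.67 to 0.98, adjusted p up to 0.474 and 0.396). Neither was called in the fit of all 18 libraries (0.68, adjusted p = 0.222, and 0.81, adjusted p = 0.195). FOSB was lower with NACET by -0.98 (SE 0.28, edgeR adjusted p = 0.0803) and was called with the block (-0.99, adjusted p = 0.00742), which called 3 of the 9 against 7.5% of all genes. These were the 3 genes with separate groups, a share that was 28.8% over all genes. In NRF2-edited cells 1 gene was called, against 8.31% of all genes: JUND was lower with NACET by -0.70 (SE 0.15, edgeR adjusted p = 0.0266), and all 3 NACET libraries were below all 3 H2O2 libraries, alone among the 9 genes, as in 15% of all genes. That call held in 2 of 9 fits, without H2O2 library 1 or without number 1 (-0.85 to -0.62, adjusted p up to 0.395). The block called 3 genes against 15.5% of all, JUND with FOSB (-0.99, adjusted p = 0.000912) and JUNB (0.71, adjusted p = 2.51e-05), which without it stood at -1.11 (edgeR adjusted p = 0.193) and 0.64 (edgeR adjusted p = 0.335). FOSL1 was higher by 0.52 (SE 0.32, edgeR adjusted p = 0.335) in edited cells, called in neither fit.

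The comparison of the lines asked whether the edit goes with another level of these genes at rest or under treatment. At rest none of the 9 was called, against 3.85% of all genes tested, and 1 had an unadjusted p under 0.05 (DESeq2 called 0). That was FOSL1, higher in edited cells by 0.78 (SE 0.28, edgeR adjusted p = 0.237), with overlapping groups. Its edgeR unadjusted p of 0.0212 ranked 1225 of 13710 genes, and no share is given for DESeq2. No gene of the 9 had separate groups at rest, whereas 18.5% of all genes did.

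Under H2O2 the lines differed in 2 of the 9 genes, against 5.62% of all genes, while 6 had an unadjusted p under 0.05 and DESeq2 called 3. Over all genes an edgeR unadjusted p of 0.0512 ranked 3253 of 13580, and no share is given for DESeq2. Neither of these 2 counts is read as a result about the 9. The median difference of the 9 was 0.73, against 0.01 over all genes. IER3 was higher in edited cells by 0.85 (SE 0.15, edgeR adjusted p = 0.00872), and JUND by 0.75 (SE 0.17, edgeR adjusted p = 0.0304). The 3 edited libraries of IER3 (92.6 to 103 CPM) and of JUND (154 to 217 CPM) lay above the 3 control libraries (42.9 to 58.8 and 103 to 137 CPM). JUN and DUSP1 were separated in the same direction, by 0.29 (SE 0.13, edgeR adjusted p = 0.214) and 0.51 (SE 0.17, edgeR adjusted p = 0.108), so 4 of the 9 genes had groups without overlap, all higher in edited cells, where 13% of all genes lay higher without overlap. The call of IER3 held in 7 of 9 fits that left out libraries (0.65 to 0.94) and was lost without number 2 or number 3 (adjusted p up to 0.188). That of JUND held in 3, those without control library 3, edited library 1 or number 1 (0.61 to 0.89, adjusted p up to 0.475). FOSB, FOSL1 and JUNB stood higher in edited cells by 1.35 (SE 0.46, edgeR adjusted p = 0.123), 0.73 (SE 0.28, edgeR adjusted p = 0.154) and 0.81 (SE 0.35, edgeR adjusted p = 0.199), with overlapping groups. FOSB was called by DESeq2 (1.36, adjusted p = 0.0364) and in the fit of all 18 libraries (1.37, adjusted p = 0.0311). EGR1 stood lower in edited cells with H2O2 by -0.91 (SE 0.50, edgeR adjusted p = 0.298). Its difference was -0.74 (SE 0.34, edgeR adjusted p = 0.399) untreated and -0.57 (SE 0.47, edgeR adjusted p = 0.587) with NACET, and the groups overlapped in the 3 conditions. Without control library 1, the highest, the difference was -0.14 with H2O2, -0.30 untreated and 0.13 with NACET.

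Under NACET none of the 9 genes was called between the lines, against 4.76% of all genes, while 5 had an unadjusted p under 0.05 and DESeq2 called 1 (FOSB, 1.22, adjusted p = 0.0478). Over all genes an edgeR unadjusted p of 0.0391 ranked 2234 of 13627, and no share is given for DESeq2. Neither count is read as a result about the 9. FOSB and DUSP1 had groups without overlap, both higher in edited cells, where 10.8% of all genes lay higher without overlap. Their differences were 1.20 (SE 0.30, edgeR adjusted p = 0.0671) and 0.33 (SE 0.12, edgeR adjusted p = 0.191). JUNB (0.60, SE 0.22, edgeR adjusted p = 0.192), IER3 (0.59, SE 0.24, edgeR adjusted p = 0.238) and FOSL1 (0.53, SE 0.20, edgeR adjusted p = 0.206) also stood higher in edited cells. Untreated IER3 had stood higher in edited cells by 0.41 (SE 0.20, edgeR adjusted p = 0.447), so the sign of its difference was the same in the 3 conditions.

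**Figure D3:**
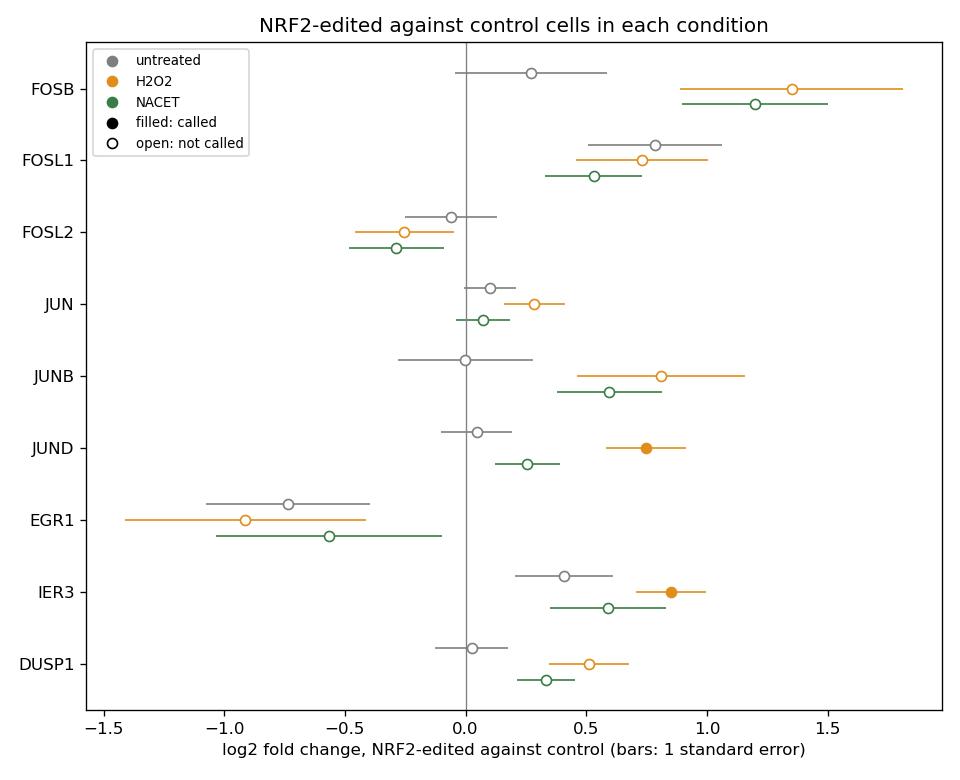
Log2 fold change of NRF2-edited against control cells for the 9 tested genes in untreated cells (grey), with H2O2 (orange) and with NACET (green); bars are 1 standard error, and filled points were called. The called points are JUND (0.75) and IER3 (0.85), both with H2O2.

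Whether a response itself differed between the lines was tested as an interaction over 12 libraries, with the sign of control minus NRF2-edited response. With H2O2 none of the 9 genes was called, against 0.0214% of all genes tested, and 1 had an unadjusted p under 0.05 (DESeq2 called 0). It was JUND, -0.71 (SE 0.24, edgeR adjusted p = 0.599): its 3 control libraries went down and its 3 edited libraries up against the untreated library of their number. JUNB stood at -0.82 (SE 0.51, edgeR adjusted p = 0.919), DUSP1 at -0.50 (SE 0.24, edgeR adjusted p = 0.895) and FOSB at -1.09 (SE 0.65, edgeR adjusted p = 0.919). With the replicate number as a block within each line, 3 genes were called, against 6.91% of all genes: JUND (-0.71, adjusted p = 0.00218), DUSP1 (-0.48, adjusted p = 0.00795) and JUNB (-0.81, adjusted p = 0.0107). With NACET none was called, against 0.0643%, none had an unadjusted p under 0.05 and DESeq2 called 0. For DESeq2 no share of all genes is given in either interaction. FOSB stood at -0.93 (SE 0.44, edgeR adjusted p = 1.00) and JUNB at -0.59 (SE 0.40, edgeR adjusted p = 1.00), and the block within each line called JUNB (-0.64, adjusted p = 0.0195, against 0.9% of all genes).

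The wider system was read from lists of genes. Beside their counts stand the shares of all genes called, in control and edited cells. These were 6.33% and 9.81% with H2O2, 2.75% and 1.39% with NACET, and 3.67% and 8.31% between NACET and H2O2. With the block they were 10.2% and 18.7% with H2O2 and 7.49% and 8.82% with NACET. Between lines they were 3.85% untreated, 5.62% with H2O2 and 4.76% with NACET. Among 24 other immediate early genes tested with H2O2, 3 rose and 2 fell in control cells and 5 rose and 1 fell in NRF2-edited cells. The block called 5 higher and 2 lower in control cells and 10 higher and 1 lower in edited cells. ATF3, a stress-induced bZIP repressor that can pair with JUN, rose by 1.61 (14.9 ± 2.21 to 44.7 ± 7.05 CPM, SD, n = 3, edgeR adjusted p = 0.00128) in control and by 2.74 (13.8 ± 3.02 to 91.7 ± 25.5 CPM, edgeR adjusted p = 0.00123) in edited cells. BTG2, an antiproliferative p53 target, rose by 1.15 and 1.65 with H2O2 (edgeR adjusted p = 0.00535 and 0.00225) and fell with NACET (53.5 ± 6.08 to 26.7 ± 4.44 CPM in control and 52.7 ± 5.13 to 22.1 ± 1.58 CPM in edited cells, edgeR adjusted p = 0.0170 and 0.0101). KLF4 rose by 0.88 and 1.80 with H2O2, and KLF6 fell in both lines (-0.63 and -1.01), both zinc finger genes. IER5 (0.69) and the orphan receptor gene NR4A3 were the other genes that rose in edited cells. NR4A3 averaged under 1 CPM there and did not pass the filter between the untreated lines, so no fold change is given. KLF2, a zinc finger gene well known from endothelium, was lower with H2O2 in control cells (-1.39, edgeR adjusted p = 0.00575) and higher with NACET in both lines (0.81 and 1.60). With NACET 2 of the 24 rose and 1 fell in each line, IER2 (0.61, edgeR adjusted p = 0.0427) in control and PHLDA1 (0.88, edgeR adjusted p = 0.0403) in edited cells being the other calls. The block called 4 higher and 1 lower in control and 8 higher and 1 lower in edited cells. Between NACET and H2O2, 4 of 25 were higher and 3 lower with NACET in control cells and 3 of 24 higher and 4 lower in edited cells, BTG2 furthest among those lower in control cells (-2.14, against -2.89 in edited cells). In edited against control cells none of 23 was called untreated, 4 of 25 were higher with H2O2, KLF4 most (1.72), and 2 of 24 with NACET, PHLDA1 (1.12) and IER2 (0.66). The median log2 fold changes of the list were 0.08, 0.42, 0.13 and 0.15 in the 4 treatment comparisons.

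Of 9 tested bZIP genes that can pair with or compete against JUN and FOS proteins, 3 rose with H2O2 in control and 4 in edited cells, and none fell. ATF3 counts in this list too. ATF4, the translation-regulated factor of the integrated stress response, rose by 1.12 (203 ± 28.7 to 434 ± 42.5 CPM, SD, n = 3) and 1.67 (217 ± 30.9 to 688 ± 173 CPM), and JDP2, a JUN-binding repressor, by 0.69 and 1.20. DDIT3, which encodes the stress factor CHOP, rose in edited cells by 1.91 (25.3 ± 3.77 to 94.6 ± 37.2 CPM, edgeR adjusted p = 0.00649), where its level with H2O2 was also higher than in control cells (1.31, edgeR adjusted p = 0.0273). The list's median was 0.49 and 0.95 with H2O2. With NACET it was 0.08 and -0.03, with 2 called in control cells (ATF4, 0.65, and BATF3) and none in edited cells, where the block called 2. BATF3 averaged under 1 CPM in the compared libraries, so its call rests on low counts and no fold change is given. Between NACET and H2O2, 1 of the 9 was lower with NACET in control cells (ATF3, -1.51; 3 with the block) and 4 in edited cells, ATF3 most (-2.98). Between lines, none was called untreated or with NACET, and ATF3 (1.03) was the other gene higher in edited cells with H2O2.

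MAP kinase genes form the cascade upstream of AP-1. Of 19 tested in control cells 1 rose and 1 fell with H2O2, MAP3K5 (0.96), which encodes the redox-gated kinase ASK1, and MAPK7 (-0.66), which encodes ERK5. In edited cells 2 of 20 fell with H2O2, MAPK7 (-0.70) and MAP2K6, which encodes a p38 kinase kinase. MAP2K6 averaged under 1 CPM in these libraries, so its call rests on low counts and no fold change is given. NACET called MAP3K5 alone (1.37, edgeR adjusted p = 0.0225) in control cells and none of 20 in edited cells, where the block called 1 in each direction, as it did in control cells. Against H2O2, NACET went with 2 of 19 higher in control cells (MAPK7, 0.83, and MAP2K1, 0.67) and 4 of 19 in edited cells, and none was called between the lines. Of 15 feedback genes, phosphatases and Sprouty or SPRED adaptors that damp ERK signalling, 1 rose with H2O2 in control cells (DUSP2, 0.93) and 3 in edited cells (DUSP2, 1.54, DUSP5, 1.30, and DUSP14, 0.71). With NACET SPRY4 rose (1.04) and DUSP8 fell (-0.67) in control cells, and DUSP5 (1.27) and DUSP6 (1.23) rose and DUSP8 fell (-0.88) in edited cells. The block raised these NACET counts to 4 higher and 2 lower in control and 4 higher and 1 lower in edited cells. SPRY2 was higher in edited than in control cells in the 3 conditions (0.69, 0.95 and 0.74), as was DUSP4 untreated (0.70) and DUSP6 with H2O2 (1.18) and with NACET (1.14).

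Reputed AP-1 targets were the last list, with 14 or 15 tested. IL8, a neutrophil chemokine, was called higher with NACET in control cells (0.394 ± 0.261 to 5.65 ± 3.72 CPM, SD, n = 3), but it passed the filter on low counts through its NACET libraries, so no fold change or p is given. PLAUR, the urokinase receptor, rose in edited cells with H2O2 (0.68) and NACET (0.93). In all, 1 and 2 of the list rose with H2O2 and 2 and 2 with NACET in control and edited cells, and none fell. The 2 with NACET in control cells include IL8. The block called 1 higher and 2 lower, 5, 4 and 7 higher. The list's medians were 0.16, 0.43, 0.23 and 0.47 in the 4 treatment comparisons. Between lines PLAU, the urokinase itself, was far lower in edited cells, untreated (log2 fold change -3.62, edgeR adjusted p = 0.000111), with H2O2 (7.14 ± 0.490 against 0.575 ± 0.0962 CPM in control and edited cells, -3.64) and with NACET (-3.41). MMP1, the interstitial collagenase, averaged 0.0640 CPM with H2O2 and 0.0894 CPM with NACET in control cells, near or below the floor of 3 counts, and 5.49 ± 3.81 CPM with H2O2 and 4.64 ± 3.04 CPM with NACET in edited cells (SD, n = 3). In total 1, 4 and 2 of the list were higher and 1 lower in edited cells in untreated, H2O2 and NACET libraries. The counts higher with H2O2 and with NACET include MMP1, which passed the filter on low counts through its edited libraries. Calls of single list genes were not followed through the fits that left out libraries.

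Likeness of pattern was described by Pearson correlation of log2(CPM + 1) over the 18 libraries, which share 2 lines, 3 treatments and the replicate numbers, so no p is given. Within the group the closest pairs were FOSB with DUSP1 (0.86), FOSL1 with JUNB (0.86), JUN with JUND (0.85) and JUND with DUSP1 (0.84). FOSL2 ran against FOSB (-0.79), DUSP1 (-0.72) and JUND (-0.66) and along with EGR1 (0.71). Among 12839 other genes the nearest to FOSL1 were ID1, IER2 and TYRO3 (all 0.96), and the nearest to JUNB were ARID5A (0.94), ITPRIP (0.93) and SPRY4 (0.93). TMBIM1, FBXO31 and GPBP1L1 were nearest to FOSB (0.93 to 0.94), COL5A1, TRIO and LPHN3 to FOSL2 (0.97), YIPF2, ZNF707 and C19orf6 to JUND (0.94 to 0.95), and MIER2, CYR61 and CSNK1E to DUSP1 (0.93 to 0.94). JUN, EGR1 and IER3 had no neighbour above 0.90, their nearest being ABHD14A (0.89), PHLDB2 (0.89) and ZNF711 (0.88). By Spearman correlation, 6 of the 27 neighbours were the same.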

How the data were processed

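Poly(A) RNA of 18 ARPE-19 samples was sequenced from TruSeq RNA v2 libraries, which do not mark strand, so reads of overlapping antisense genes cannot be told apart. The submitters' processing notes name FastQC, TopHat2 2.1.0, Bowtie, HTSeq 0.11.2 and the hg19 build. The deposited values are raw counts for 23411 symbols, and 5 summary lines (reads outside genes, ambiguous or placed more than once) were left out. Genes held 72.1% to 74.2% of each file. The 10 genes and all lists were chosen with earlier results of these data known.

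Counts were tested with edgeR 4.0.16 in R 4.3.3 (filterByExpr, TMM, glmQLFit and glmQLFTest, Benjamini-Hochberg adjustment), each pair of groups fitted on its 6 libraries and each interaction on 12. Standard errors were the log2 fold change divided by the root of F. DESeq2 1.42.0, other scalings, filters, fold limits, a replicate block and fits without libraries were alternatives. Beside the members, at most 4 called genes per list and comparison that averaged at least 1 CPM were named, those with the largest fold changes. BATF3, NR4A3, MAP2K6, IER5 and, in control cells, KLF6 were named after their values were seen. Of these, BATF3, NR4A3 and MAP2K6 averaged under 1 CPM. A called gene of the AP-1 target list is counted there but not reported here. Lengths per kb were the union of exons in GENCODE v44 lifted to GRCh37. Promoters were matched to RefSeq by symbol. The scripts were tested on simulated data. Libraries of 1 group differed by far more than counting noise (chi-square per degree of freedom of at least 9.98), so none was counted as a duplicate. Within a line, all 18 same-number pairs of libraries deviated together from their group means (correlations of 0.471 to 0.876 over 11010 genes), each best with its own number. The numbers were therefore taken as pairs there in the replicate block and in counts within a number, although the labels do not say what they mark. The main fits were unpaired. Groups of 3 against 3 cannot reach an exact permutation p under 0.1, so no exact test is given.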

Additional observations from a re-analysis of the deposited data

Results flagged for a closer look

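In 4 cases the response of a gene differed between the lines when the replicate number was a block within each line (an alternative added once the data had been seen), although none was called without it. The difference is the control response minus that of NRF2-edited cells on the log2 scale. With H2O2 it was -0.81 for JUNB (edgeR adjusted p = 0.0107), -0.71 for JUND (adjusted p = 0.00218) and -0.48 for DUSP1 (adjusted p = 0.00795). With NACET it was -0.64 for JUNB (adjusted p = 0.0195). JUNB went up with H2O2 within 3 of 3 numbers in edited cells and within 1 of 3 in control cells, and JUND within 3 and 0. With 1 block per replicate number over both lines none of the 4 was called either (adjusted p = 0.213 for JUNB, 0.0858 for JUND and 0.291 for DUSP1 with H2O2, and 0.886 for JUNB with NACET). Groups of 3 libraries were not searched for single outlying samples.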

How the results depend on the processing

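The difference of EGR1 between lines with NACET, never called, ranged from -0.91 to 0.13 when libraries were left out and turned positive without control NACET library 1 (0.13) or without number 1 (0.057). No other member difference that was followed through the alternatives reversed its sign. Fold changes and medians of the gene lists were not followed for sign. Values are counts of the 9 members called, then of pathway genes called. Leaving out libraries, 1 at a time or by replicate number, gave 0 to 2 members with H2O2 in control and 0 to 5 in NRF2-edited cells, 0 to 1 and 0 to 3 with NACET, 0 to 2 and 0 to 2 for NACET against H2O2, 0 to 1, 0 to 6 and 0 to 3 between lines (untreated, H2O2, NACET) and 0 for both interactions. For pathway genes the ranges were 0 to 14 and 0 to 31, 0 to 7 and 0 to 21, 0 to 16 and 0 to 20, 0 to 8, 1 to 28 and 1 to 14, and 0 to 1 and 0 to 0. Fewer libraries also mean fewer degrees of freedom. No share of all genes is given for these fits, so their counts are not read as results about the members.

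The cause of the following moves was not tested. Shares of all genes called are not given under these settings, so the counts are not read as results about the members. With 1 fit of all 18 libraries, members called were 2 (H2O2, edited), 1 (NACET, control), 1 (NACET, edited), 0 and 2 (NACET against H2O2, control and edited), and pathway genes 16 (NACET, edited) and 11 (lines, NACET). DESeq2 called 2 members with H2O2 and 2 with NACET in edited cells and 1 between lines with NACET, and pathway genes 16 (NACET, edited), 13 (lines, NACET) and 1 (H2O2 interaction). A filter of 1 CPM gave 1 member with H2O2 in control cells, and no filter gave 2 in edited cells. A log2 fold limit of 1 left 1 member with NACET in control cells, 0 and 0 for NACET against H2O2 and 0 between lines with H2O2, and pathway genes 4 (H2O2, control), 6 and 5 (NACET), 6 and 6 (NACET against H2O2), 2 and 4 (lines, untreated and NACET). Scaling by relative log expression changed no member's group mean by more than 0.944%.

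The replicate block, a paired fit, called 1 and 3 members with H2O2, 3 with NACET in edited cells and 3 for NACET against H2O2 in edited cells. Pathway genes were 28 (H2O2, edited), 19 and 25 (NACET) and 18 (NACET against H2O2, control). Between lines the 9 same-number pairs had correlations of -0.264 to 0.781 and 6 of 9 correlated best with their own number, so libraries shared only a number. The block there called 1, 6 (5 higher in edited cells and EGR1 lower) and 2 members (untreated, H2O2, NACET; 6.15%, 11.2% and 7.47% of all genes), 14 pathway genes with NACET and 2 in the H2O2 interaction. A block within each line, chosen after seeing the data, called 3 and 1 members and 14 and 2 pathway genes in the H2O2 and NACET interactions.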
